A study of Mus musculus and Bos taurus with 6 samples.

Results

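The cluster of miR-191 and miR-425 consists of a pair of miRNA hairpins, mir-191 and mir-425, each of which gives a 5p and a 3p mature arm. Its members were found by name: the mouse and bovine entries of miR-191 and miR-425, whichever arm they belonged to. A total of 7 of the 3289 listed mature miRNA met this rule, with 4 among the 1750 listed for mouse and 3 among the 1539 listed for bovine. The bovine entry for miR-191 bore no arm in its name and was taken as the 5p arm from its listed position. The 3p arm of the bovine mir-191 hairpin was listed only under a hamster name, cgr-miR-191-3p. It lay outside the rule and is given here as the bovine counterpart of miR-191-3p.

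Small RNA were sequenced in 6 libraries of lactating mammary gland. The mouse group held 2 libraries of total RNA from glands of FVB/N mice at day 12 of lactation. The AGO2 group held 2 libraries of RNA co-immunoprecipitated with Argonaute 2, the endonuclease of the RNA-induced silencing complex, from glands of the same strain and day. The bovine group held 2 libraries of total RNA, each pooled from 2 Holstein cows at mid-lactation on a low-forage diet. None of the animals was otherwise treated according to the labels. The libraries included no control immunoprecipitation without AGO2 antibody, so that RNA bound in the background was not measured. The methods of the study describe glands of 2 mice in all, so that AGO2 and mouse libraries may share animals. Replicate numbers followed the order of the deposit, and which libraries came from the same mouse was not known, and p-values measured only the spread between these samples. According to the methods of the study, the mice were primiparous and the cows multiparous. Abdominal glands were collected from the mice and udder biopsies from the cows. Species, parity, sampling, diet, RNA extraction kit and pooling thus changed together. Their parts in the difference between bovine and mouse cannot be told apart.

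miRNA are short RNA that guide an Argonaute protein to messenger RNA, mainly through the seed, nucleotides 2 to 8 of the mature strand. A hairpin is cut out of a longer primary transcript and then into a duplex, of which one strand is usually retained and the other mostly degraded. Hairpins lying close together on the same strand are usually cut from one primary transcript. In breast cancer cells, the transcription of mir-191 and mir-425 is known to be induced by oestrogen through its receptor alpha, the product of ESR1. Neither the hormone, nor the receptor, nor the primary transcript was measured in these libraries, and the groups did not differ by any oestrogen treatment.

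The mature sequences are shown because they set which counts belonged to which arm and whether the species could be compared. They are written 5′ to 3′ as listed in the deposited files, with the seed in capitals, and all 4 mouse sequences were the same as those of RefSeq.
mmu-miR-191-5p: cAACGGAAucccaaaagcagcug
bta-miR-191-5p: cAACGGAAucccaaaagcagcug
mmu-miR-191-3p: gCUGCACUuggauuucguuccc
cgr-miR-191-3p: cUGCGCUUggauuucguuccc
mmu-miR-425-5p: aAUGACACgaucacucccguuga
bta-miR-425-5p: aUGACACGaucacucccguuga
mmu-miR-425-3p: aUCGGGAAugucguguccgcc
bta-miR-425-3p: aUCGGGAAugucguguccgccc

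miR-191-5p had the same 23 nucleotides in both species. The other arms differed at their ends. The bovine miR-425-5p was listed 1 nucleotide shorter at its 5′ end, so that its listed seed was UGACACG and that of mouse AUGACAC. The miR-425-3p of both species shared the seed UCGGGAA, the bovine form being 1 nucleotide longer at its 3′ end. cgr-miR-191-3p lacked the first nucleotide of the mouse miR-191-3p and carried the substitution A6G, counted from 1 at the 5′ end of the mouse sequence, so that the seeds differed. No seed was shared between mir-191 and mir-425. Outside the cluster, a seed of a member or of cgr-miR-191-3p was found in 4 listed miRNA. These were bta-miR-2403-3p, with the seed of miR-425-3p and a summed count of 4 over the bovine libraries, and 3 predicted mouse miRNA with summed counts of 13, 36 and 88 over the mouse and AGO2 libraries.

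In the mouse genome (GRCm38), both hairpins lie on the plus strand of chromosome 9. Mir191 spans chr9:108568319-108568392 and Mir425 chr9:108568777-108568861, with 384 bases between them. The hairpins are shown with their mature arms in capitals, from RefSeq (GRCm38.p6).
Mir191: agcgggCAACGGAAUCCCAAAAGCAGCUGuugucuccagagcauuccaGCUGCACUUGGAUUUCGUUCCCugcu
Mir425: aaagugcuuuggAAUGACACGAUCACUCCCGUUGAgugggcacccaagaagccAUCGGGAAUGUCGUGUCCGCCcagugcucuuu

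Both hairpins fell inside the single exon of 4833445I07Rik-201, a transcript of the long intergenic non-coding RNA gene 4833445I07Rik at chr9:108567533-108569174. In 4833445I07Rik-202, a transcript of the same gene with 2 exons, Mir191 fell in the intron and Mir425 outside. Dalrd3 started 1024 bases after Mir425 on the plus strand, and Ndufaf3, which encodes an assembly factor of mitochondrial complex I on the minus strand, started 884 bases before Mir191. The annotation also held Gm24083, a miRNA gene on the minus strand that covered Mir191. No genome annotation of the bovine build was used here, so that the bovine hairpins were placed by name only.

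**Figure D1:**
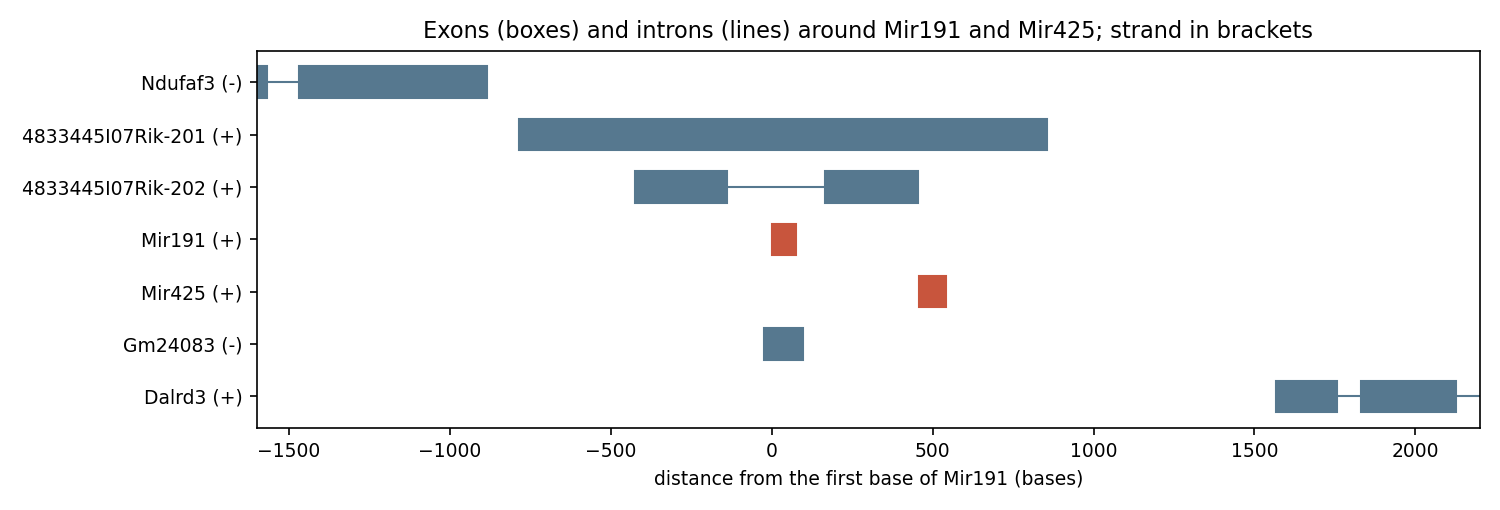
Exons (boxes) and introns (lines) of the genes around the hairpins in the mouse genome, by distance in bases from the first base of Mir191, with the strand in brackets. Mir191 and Mir425 lie 384 bases apart, both within the exon of 4833445I07Rik-201.

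The libraries held between 3909166 and 10613807 counts, so that the limit that a count of 0 allows (3 counts) was between 0.283 and 0.767 RPM, which here are counts scaled to the sum of all listed counts of a library. Each member was above this limit in every library. The mouse and AGO2 libraries were less alike within their group than the bovine ones. Over miRNA at 100 RPM or more, the SD of the log2 ratio between the libraries of a group was 0.93 in mouse, 0.88 in AGO2 and 0.31 in bovine. Markers of epithelial cells, miR-200c-3p and miR-141-3p, were present in every library, with summed levels of 43838 to 45511 RPM in mouse, 54188 and 102435 RPM in AGO2 and 46616 to 47919 RPM in bovine. The sum hides that these markers differed. In bovine over mouse, the log2 fold change by edgeR was -1.19 for miR-141-3p and 0.77 for miR-200c-3p. Those of miR-200a-3p, miR-200b-3p and miR-429-3p, of the same family but outside the sum, were -3.29, -1.52 and -3.16. In AGO2, miR-141-3p stood at 49621 and 100647 RPM, against 27622 and 38711 RPM in mouse. The 3 erythroid markers (miR-451, miR-144-3p and miR-486-5p) summed to 13343 and 6504 RPM in mouse, 32468 and 15527 RPM in AGO2 and 1709 and 1098 RPM in bovine. The 3 leukocyte markers summed to 863 to 2402 RPM and the 2 muscle markers to 4.09 to 35.5 RPM over all libraries, 1 of the latter being at 0 in mouse replicate 2. The leukocyte markers did not move together. In bovine over mouse, their log2 fold changes by edgeR were 2.27 for miR-150-5p, -1.72 for miR-142-3p and -1.83 for miR-223-3p. The part of these cells in the results on the cluster was not tested. In bulk tissue, fewer cells of a type and less miRNA per cell cannot be told apart.

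miR-191-5p was the most abundant member in all 6 libraries. It was listed at 2684 and 1178 RPM in mouse (1931 ± 1065, SD, n = 2), at 796 and 651 RPM in AGO2 (723 ± 102, SD, n = 2) and at 5456 and 4297 RPM in bovine (4876 ± 820, SD, n = 2). The order of the groups was bovine, mouse, AGO2, without overlap between neighbours. Its rank among the listed miRNA was 52 and 68 in mouse, 80 and 81 in AGO2 and 43 and 47 in bovine. These values rested on raw counts of 24958 and 9887, 3110 and 3284, and 51298 and 45603, respectively.

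miR-425-5p, the main arm of the neighbouring hairpin, was about an order of magnitude less abundant in mouse and bovine. It stood at 240 and 120 RPM in mouse (180 ± 84.2, SD, n = 2), at 331 and 115 RPM in AGO2 (223 ± 153, SD, n = 2) and at 327 and 316 RPM in bovine (321 ± 7.87, SD, n = 2). The AGO2 libraries spanned the levels of both other groups. Bovine lay above mouse without overlap.

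The 3p arms were rare. miR-191-3p was found at 11.0 and 6.32 RPM in mouse (8.64 ± 3.29, SD, n = 2) and at 11.5 and 11.3 RPM in AGO2 (11.4 ± 0.14, SD, n = 2). The AGO2 levels lay just above the higher mouse level. Its bovine counterpart cgr-miR-191-3p stood at 35.1 and 33.0 RPM (34.0 ± 1.50, SD, n = 2), above both mouse groups. These levels came from 45 to 102 counts in mouse and AGO2, and from 330 and 350 counts in bovine.

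miR-425-3p was found at 6.67 and 5.96 RPM in mouse (6.31 ± 0.50, SD, n = 2) and at 9.15 and 12.3 RPM in bovine (10.7 ± 2.26, SD, n = 2). In AGO2 it was listed at 44.5 and 2.18 RPM, from 174 and 11 counts, a 20.4-fold gap between libraries of the same group. Such gaps also occurred in other listed miRNA at this level in AGO2. Of the 145 listed miRNA, known or predicted, with a mean of 10 to 50 RPM in AGO2, 43 (29.7%) were at least as far apart. The 43 include miR-425-3p itself and any miRNA with no counts in a single AGO2 library. The median gap was 3.08-fold.

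**Figure D2:**
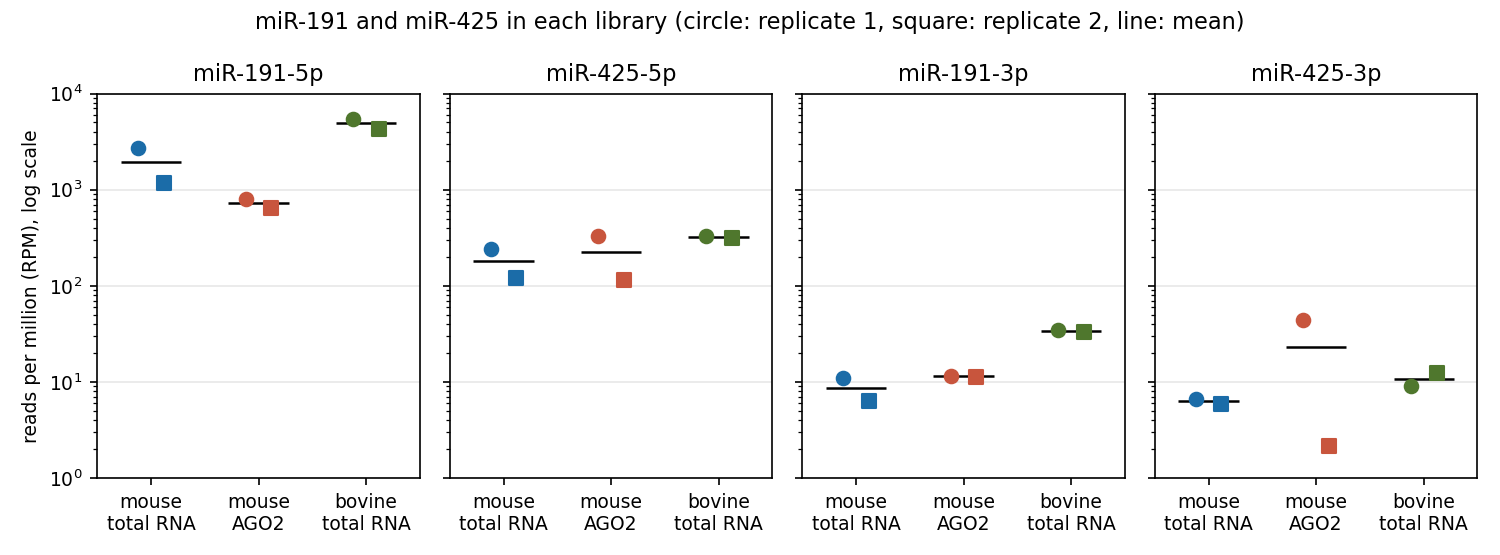
Level of each arm in RPM (log scale) in the mouse, AGO2 and bovine libraries, as circles (replicate 1) and squares (replicate 2), with lines at the group means; the bovine miR-191-3p is the cgr entry. miR-191-5p is lowest in AGO2 (651 and 796 RPM) and highest in bovine (4297 and 5456 RPM), whereas the AGO2 values of miR-425-3p (2.18 and 44.5 RPM) lie on both sides of all the others.

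The mouse libraries differed in the same direction for both main arms. miR-191-5p was 2.28-fold and miR-425-5p 1.99-fold higher in mouse replicate 1 than in replicate 2. Of the 171 miRNA at 100 RPM or more in a mouse library, 25 (14.6%) were higher in replicate 1 by at least the fold of miR-191-5p and 32 (18.7%) by at least that of miR-425-5p.

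The comparison of AGO2 with mouse asked which miRNA were over- or under-represented in the silencing complex relative to the whole tissue. miR-191-5p was on average 2.67-fold lower in AGO2 in RPM, and both AGO2 libraries lay below both mouse libraries. Its log2 fold change was -1.25 (SE 0.60), with an unadjusted p of 0.0495 and an adjusted p of 0.113 by the quasi-likelihood test of edgeR. It thus did not pass the threshold of 0.05. For miR-425-5p, the log2 fold change of AGO2 over mouse was 0.45 (SE 0.67), with an adjusted p of 0.599 by edgeR, and the levels overlapped. By this test, 0 of these 2 members were called, where 83 of the 299 miRNA tested (27.8%) were called, 46 higher (15.4%) and 37 lower (12.4%) in AGO2. By DESeq2, 0 of the 2 were called as well, against 117 of the 299 (39.1%). At an unadjusted p under 0.05, miR-191-5p alone of the 2 would have been counted by edgeR, as would 131 of the 299 (43.8%). When each library was left out in turn, the log2 fold change of miR-191-5p stayed between -1.70 and -0.60, its value without mouse replicate 1. That of miR-425-5p lay between -0.098, without AGO2 replicate 1, and 1.00, without AGO2 replicate 2, and so changed sign with a single library.

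The 3p arms were too rare for the filter of this test, since neither had more counts in any library than the minimum. Without a filter, the log2 fold change of AGO2 over mouse was 0.38 for miR-191-3p (adjusted p = 0.921, edgeR) and 1.74 for miR-425-3p (adjusted p = 0.532, edgeR), the latter resting on AGO2 replicate 1. In RPM, miR-191-5p and miR-191-3p did not overlap between the groups while the arms of miR-425 did. Of the 1750 miRNA of the mouse list, 508 (29.0%) did not overlap, with 196 (11.2%) higher and 312 (17.8%) lower in AGO2, beside 2 of the 4 members. Each library held counts for 773 to 1080 of the 1750, whereas the members had counts in every library. miRNA without counts in a library of both groups cannot separate, so that this share may be low for miRNA at the level of the members.

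**Figure D3:**
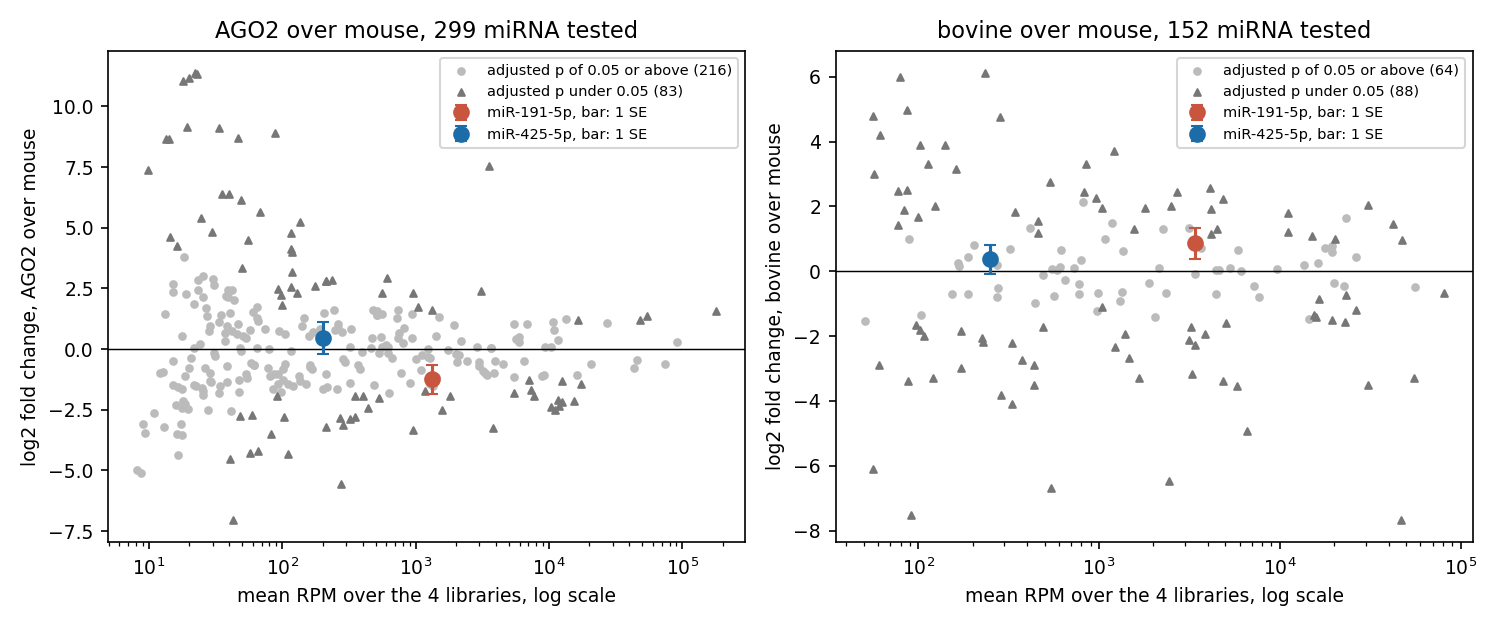
The log2 fold change by edgeR of AGO2 over mouse (299 miRNA) and of bovine over mouse (152 miRNA) against mean RPM over the 4 libraries compared (log scale). miR-191-5p (-1.25 and 0.86) and miR-425-5p (0.45 and 0.36), with bars of 1 SE, lie among the miRNA that did not pass the threshold (grey circles).

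As the hairpins lie close together, the ratio of their main arms was compared within each library, which needs no scaling between libraries. miR-191-5p exceeded miR-425-5p 11.2- and 9.78-fold in mouse, 2.40- and 5.67-fold in AGO2, and 16.7- and 13.6-fold in bovine. The groups did not overlap, and the order was bovine, mouse, AGO2. The bovine miR-425-5p was listed with a different start, and whether this affected the ratio was not tested. Relative to mouse, the ratio was 2.83-fold lower in AGO2 (log2 difference -1.50) and 1.44-fold higher in bovine (log2 difference 0.53). The exact two-sided permutation p was 0.333 in both cases, the smallest that 2 libraries against 2 can give, so that these differences could not reach the threshold. The difference of AGO2 from mouse lay between -2.12 and -0.88 on the log2 scale when each library was left out in turn. From counting error alone, the exact 95% intervals of the ratio were 2.25 to 2.57 and 5.19 to 6.21 in AGO2. In mouse they were 10.7 to 11.7 and 9.17 to 10.4. Libraries of the same group were thus also apart by these intervals, which do not cover the spread between libraries.

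Both hairpins gave mostly 5p arms in every library. For mir-191, the 5p arm made up 99.6% and 99.5% of the counts of both arms in mouse, 98.6% and 98.3% in AGO2, and 99.4% and 99.2% in bovine. The 5p arm thus outnumbered the 3p arm 245- and 187-fold in mouse, 69.1- and 57.6-fold in AGO2, and 155- and 130-fold in bovine. The AGO2 libraries had the lowest and the mouse libraries the highest ratios, without overlap. For bovine against mouse, the share of all hairpins whose arm ratios did not overlap was not computed. In RPM, 210 of the 252 miRNA matched between these species (83.3%) did not overlap. The log2 ratio (pseudocount 0.5) was lower by 3.39-fold in AGO2 than in mouse (log2 difference -1.76) and by 1.49-fold in bovine (log2 difference -0.58), again with the smallest exact permutation p of 0.333. In bovine the 3p counts came from an entry of another species with a different listed end, and whether this affected the count was not tested.

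For mir-425, the 5p arm made up 97.3% and 95.3% of counts in mouse and 97.3% and 96.2% in bovine. In AGO2 it made up 88.1% (exact 95% interval 86.4 to 89.8) in replicate 1 and 98.1% (96.7 to 99.1) in replicate 2, on both sides of all other libraries. The groups overlapped, the log2 differences from mouse were -0.47 in AGO2 and 0.17 in bovine, and the exact permutation p was 1.0 for each. Both differences changed sign when single libraries were left out, to 0.92 in AGO2 without replicate 1 of that group, and in bovine to -0.24 without mouse replicate 2 and -0.068 without bovine replicate 1.

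**Figure D4:**
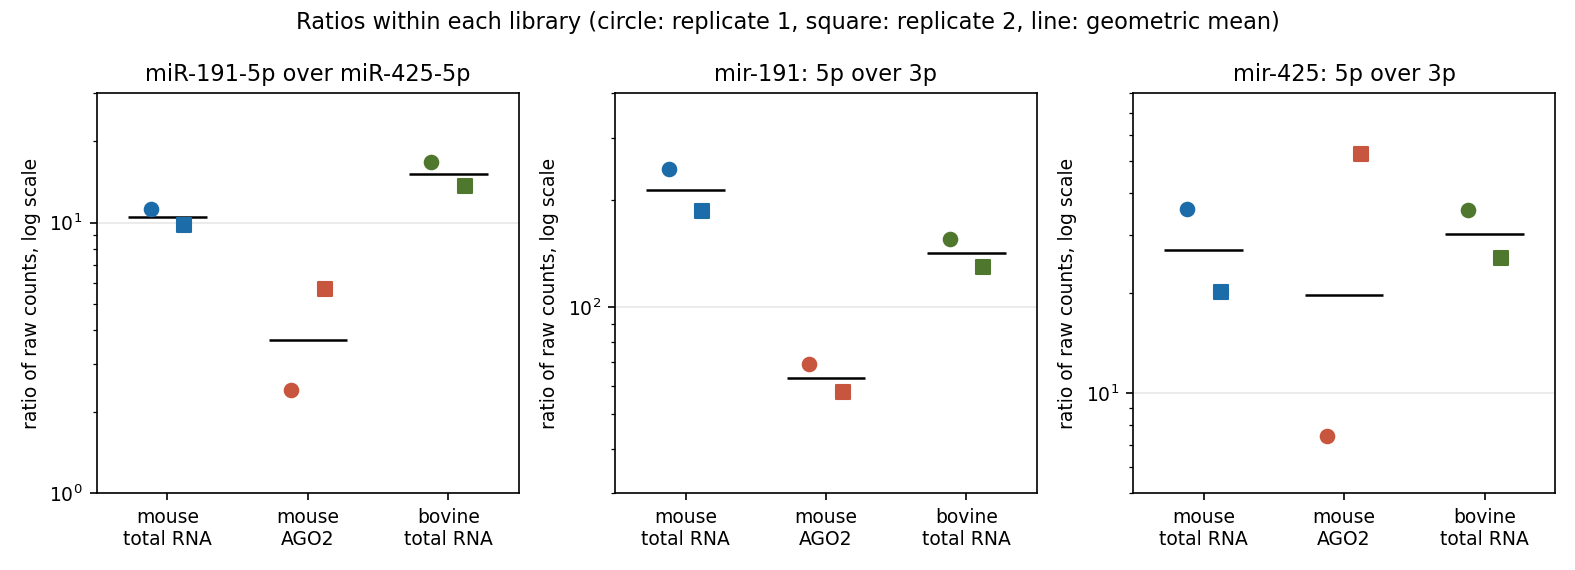
Ratios of raw counts (log scale) within each library: miR-191-5p over miR-425-5p, and 5p over 3p of each hairpin, as circles (replicate 1) and squares (replicate 2) with lines at the geometric means. The first 2 ratios are lowest in AGO2 (2.40 and 5.67, and 69.1 and 57.6), while the AGO2 values for mir-425 (7.44 and 52.6) lie on both sides of the other groups.

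To place the mir-191 arms among other hairpins, the ratio of minor to major arm was followed in the 180 mouse hairpins with at least 10 counts from both arms together in each mouse and AGO2 library. The change of the log2 ratio from mouse to AGO2 was 1.76 for mir-191 and 0.47 for mir-425, ranks 58 and 93 from the highest. Over all 180 hairpins the median change was 0.77, with quartiles of -1.65 and 2.57. Both AGO2 libraries lay above both mouse libraries in 68 hairpins (37.8%), mir-191 among them, and below in 49 (27.2%). Both hairpins of the cluster lay between these quartiles.

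**Figure D5:**
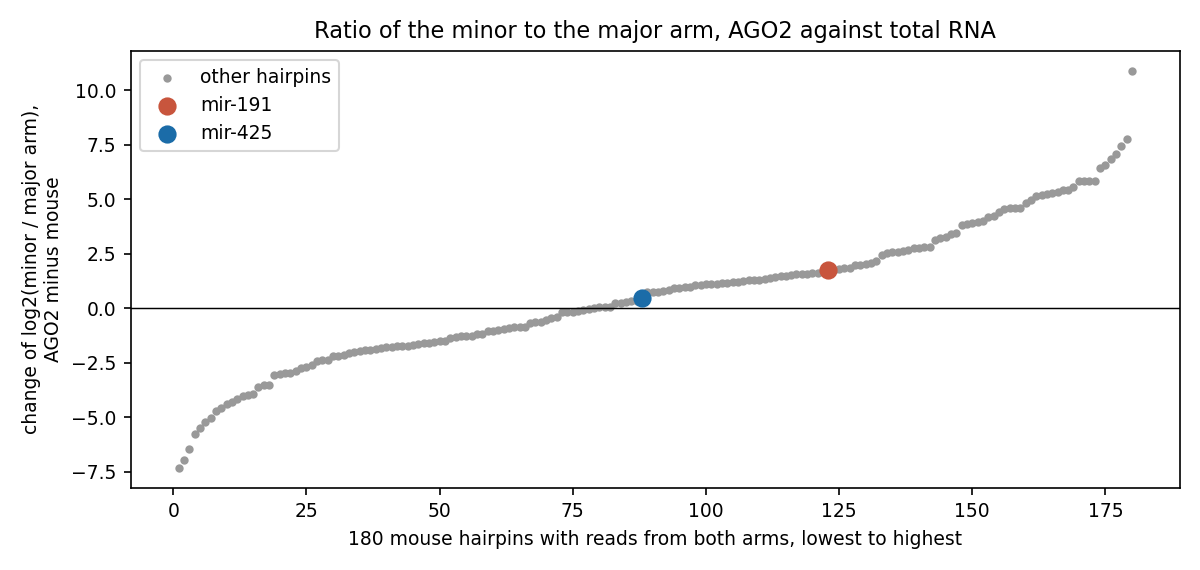
Change from mouse to AGO2 of the log2 ratio of minor to major arm in 180 mouse hairpins, in increasing order. mir-191 (1.76) and mir-425 (0.47) lie between the quartiles of -1.65 and 2.57.

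The comparison of bovine with mouse asked which levels the lactating glands of both species shared. All 4 arms were higher in bovine in RPM, without overlap: 2.53-fold for miR-191-5p, 1.79-fold for miR-425-5p, 1.70-fold for miR-425-3p and 3.94-fold for miR-191-3p, with the cgr entry in its place. Being higher was common, as 129 of the 252 matched miRNA (51.2%) were higher and 81 (32.1%) lower in both bovine libraries. The listed start of miR-425-5p differed between the species, and whether this affected its counts was not tested. By edgeR with TMM scaling, bovine over mouse gave a log2 fold change of 0.86 (SE 0.49, adjusted p = 0.186) for miR-191-5p and 0.36 (SE 0.46, adjusted p = 0.516) for miR-425-5p. By this test, 0 of the 2 were called, where 88 of the 152 matched miRNA tested (57.9%) were called, 42 higher (27.6%) and 46 lower (30.3%) in bovine. DESeq2 called 0 of the 2 as well, against 97 of the 152 (63.8%). At an unadjusted p under 0.05, edgeR counted 0 of the 2 and 98 of the 152 (64.5%), and DESeq2 miR-191-5p alone of the 2 and 101 of the 152 (66.4%).

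The outcome turned on a single mouse library. Without mouse replicate 1, in which the cluster was more abundant, edgeR called both members higher in bovine, miR-191-5p with a log2 fold change of 1.62 (adjusted p = 5.87e-11) and miR-425-5p with one of 0.99 (adjusted p = 0.00115). Most miRNA were called in that fit, 124 of the 152 (81.6%), with 65 higher (42.8%) and 59 lower (38.8%) in bovine. In it, the remaining mouse library was assumed to vary like the bovine ones. Without mouse replicate 2, they were 0.36 (adjusted p = 0.0896, edgeR) and -0.073, the latter reversed. Scaling mattered too. Scaling to library totals alone, summed over the miRNA tested, put the median of all miRNA tested at 0.51 on the log2 scale, and TMM at 0.04. With library totals alone, miR-191-5p stood at 1.35 (adjusted p = 0.0560, edgeR) and miR-425-5p at 0.84, so that the latter lay 0.33 above the median of all miRNA tested under both scalings.

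Without a filter, miR-425-3p had a log2 fold change of 0.26 between bovine and mouse (adjusted p = 0.721, edgeR). When cgr-miR-191-3p was set against the mouse miR-191-3p, a match chosen after seeing the data, it was 1.42 (SE 0.53, adjusted p = 0.0309, edgeR), the only arm past the threshold in any fit with all libraries. In that fit 146 of the 252 miRNA (57.9%) were called, 74 of them higher (29.4%). The sequences of these entries differ at the 5′ end and by A6G, as shown above.

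The comparisons with AGO2 and with bovine shared the mouse libraries, and the values of each are therefore given side by side and not correlated.

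The miRNA with profiles most like those of the main arms were found among the matched miRNA, by the root mean square (RMS) difference of log2(RPM + 1), centred on each miRNA's own mean, over the 6 libraries. The 5 nearest to miR-191-5p were miR-361-5p (RMS 0.30), miR-151-5p (0.33), miR-16-5p (0.35), miR-28a-5p (0.43) and let-7e-5p (0.44). As an example, miR-361-5p stood at 257 and 192 RPM in mouse, 77.0 and 72.6 RPM in AGO2 and 724 and 671 RPM in bovine, the same order of groups as miR-191-5p. The 5 nearest to miR-425-5p were miR-362-5p (RMS 0.28), miR-23a-3p (0.43), miR-145a-5p (0.43), miR-140-3p (0.44) and miR-23b-3p (0.45). miR-362-5p stood at 621 and 337 RPM in mouse, 549 and 333 RPM in AGO2 and 809 and 654 RPM in bovine. The lists had no miRNA in common. Despite their neighbouring hairpins, miR-425-5p ranked 48 of 161 among the miRNA most like miR-191-5p, at an RMS of 0.94, where the median of all was 1.24, and miR-191-5p ranked 46 of 161 for miR-425-5p. The points of these profiles share libraries and scaling, and no test was made.

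As oestrogen signalling is the context in which the cluster is known, miRNA known to target the ESR1 messenger RNA were followed alongside: miR-206-3p, miR-221-3p, miR-222-3p, miR-22-3p, miR-18a-5p, miR-18b-5p and miR-193b-3p. In AGO2 against mouse, 4 of these 7 were tested and 0 were called in either direction by edgeR, beside 83 of all 299 (27.8%). As miR-206-3p, miR-18b-5p and miR-193b-3p were not tested, the direction of the list as a whole is not known. The median log2 fold change of the 4 tested was -1.03, against -0.12 over all 299 miRNA tested. The most abundant of them, miR-22-3p, fell short of the threshold, at 26241 and 19115 RPM in mouse and 9209 and 10036 RPM in AGO2 (log2 fold change -1.07, adjusted p = 0.0539, edgeR). At an unadjusted p under 0.05 it alone of the 4 would have been counted, beside 43.8% of all miRNA tested.

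In bovine against mouse, 5 of the 7 were tested, of which 3 were called lower and 1 higher by edgeR, beside 46 (30.3%) and 42 (27.6%) of all 152. The median log2 fold change of these 5 was -1.95, against 0.04 over all 152 miRNA tested. It leaves out miR-206-3p and miR-193b-3p, which were not tested. miR-221-3p and miR-222-3p, which share a seed and are transcribed from one locus, were called lower, their log2 fold changes being -2.29 and -2.21. miR-221-3p stood at 5457 and 5190 RPM in mouse and 1568 and 1433 RPM in bovine. miR-18a-5p was lower by a log2 fold change of -1.95, whereas miR-18b-5p was higher, at 251 and 140 RPM against 7.63 and 11.6 RPM in mouse, a log2 fold change of 3.88. As miR-18b-5p reached the filter of 100 RPM in the bovine libraries only, it was tested because of its high bovine level. The filter thus favoured the 1 call of the list that was higher. miR-18a-5p and miR-18b-5p are close paralogues, between which reads of the quantification may be split. Whether this affected their fold changes was not tested. miR-22-3p did not pass the threshold, with a log2 fold change of -0.46.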

How the data were processed

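Small RNA of lactating mammary gland were sequenced in 6 libraries, 2 each of mouse, AGO2 and bovine. According to the methods of the study, the authors poly(A)-tailed the RNA, removed poly-A stretches from the reads, retained reads of 17 to 28 nucleotides and mapped them with miRDeep2 to GRCm38 or UMD3.1. They then quantified miRNA against hairpins of miRBase 20 and hairpins predicted with a positive score, and removed redundant entries. The deposited values were raw read counts per mature miRNA, with no molecular identifiers. A second deposited column, which rescaled each count to a score per library, was not used. The authors' lists of predicted hairpins held a miRDeep2 score per hairpin and read counts pooled over libraries.

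RPM were computed over all listed counts of a library (3909166 to 10613807). Groups were compared with edgeR 4.0.16 (R 4.3.3), TMM scaling, the quasi-likelihood test and Benjamini-Hochberg adjustment over all miRNA tested, at 0.05. SE was the log2 fold change divided by the root of F. AGO2 and mouse were compared for miRNA above the minimum count of the study's methods in any of the 4 libraries. Bovine and mouse were compared for miRNA of the 251 pairs of names in the study's list that reached 100 RPM in any library. Only the names were taken from that list. Ratios within a library were compared by exact two-sided permutation tests of log2 ratios (pseudocount 0.5 for arms), and intervals of shares and ratios were exact binomial (Clopper-Pearson, 95%), covering counting error only. DESeq2 1.42.0, other scalings, filters and matchings and the omission of each library were alternatives. Named miRNA were all members, the 5 nearest in profile to each main arm, those sharing a seed, and a list of miRNA targeting ESR1. The members and lists were chosen with earlier results of these data known. Annotation came from GENCODE M21 and RefSeq.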

Additional observations from a re-analysis of the deposited data

Results flagged for a closer look

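In the bovine list, counts were found for bta-22_21087_mt, the mature strand of a hairpin that was predicted on the opposite strand of mir-191 and is used in no comparison above. There were 17 counts in bovine replicate 1 and 35 in replicate 2 (exact 95% Poisson intervals 9.90 to 27.2 and 24.4 to 48.7), that is 1.81 and 3.30 RPM. Both exceed the limit of 3 counts that a count of 0 allows, which is why they are shown, and the libraries share no control for such reads. They amounted to 0.0329% and 0.0762% of the counts of the mir-191 arms themselves. The star strand had 0 counts in both libraries. The hairpin lies on the minus strand at chr22:51543482-51543545 (UMD3.1) and is shown with its mature strand in capitals, as the deposited list gives it.
bta-22_21087: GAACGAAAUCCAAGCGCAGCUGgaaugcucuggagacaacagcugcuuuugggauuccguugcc

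Its reverse complement held all 23 nucleotides of bta-miR-191-5p and a run of 19 of the 21 nucleotides of cgr-miR-191-3p. Its score was 53.6, rank 26 of the 767 bovine predictions, from 96 pooled reads, of which 95 were of the mature strand and 1 of the star strand. These pooled reads come from the list of predictions and exceed the counts per library given above (17 and 35 for the mature strand). The reason for this difference was not tested. No entry of the mouse list shared 16 or more consecutive nucleotides with the opposite strand of Mir191 or Mir425, and no predicted mouse hairpin overlapped them, although the mouse annotation holds Gm24083 on that strand. Whether these counts came from a transcript of the opposite strand was not tested.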

How the results depend on the processing

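With 2 libraries per group, single libraries limited every comparison. Without each library in turn, the number of miRNA called ranged from 50 (without mouse replicate 1) to 90 for AGO2 against mouse (83 with all libraries), and from 46 (without bovine replicate 2) to 124 (without mouse replicate 1) for bovine against mouse (88). For miR-191-5p, the log2 fold change ranged from 0.36 to 1.62 in bovine. For miR-425-5p it ranged from -0.098 to 1.00 in AGO2 and from -0.073 to 0.99 in bovine. The difference from mouse in the log2 ratio of 5p over 3p of mir-425 ranged from -1.85 to 0.92 in AGO2 and from -0.24 to 0.59 in bovine. The other fold changes and ratios, that is miR-191-5p in AGO2, the arms of mir-191 and the ratio of miR-191-5p to miR-425-5p, kept their direction. The causes were not tested.

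Without the filter, 144 of 251 matched miRNA were called between bovine and mouse, and 146 of 252 with cgr-miR-191-3p matched, as more miRNA were tested. With library totals alone, 52 of 88 calls were higher in bovine (59.1%), against 42 of 88 (47.7%). In the fits with all libraries, neither main arm passed the threshold under any other setting. There the adjusted p of miR-191-5p was 0.0736 to 0.147 in AGO2 (5 settings, edgeR or DESeq2) and 0.0560 to 0.154 in bovine (6 settings, of which 1 was chosen after seeing the data). No paired analysis was possible because the labels do not tie AGO2 and mouse libraries to the same animal.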
